A study of Homo sapiens with 2 samples.

Results

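The genes examined here encode RNA polymerase II, the Mediator complex and the general transcription factors, the machinery that starts transcription of protein-coding genes. They were taken by symbol from the protein-coding RefSeq records of GRCh38: symbols that start with POLR2, GTF2, MED plus a digit or TAF plus a digit, without TAF1A to TAF1D, and TBP. The rule matched 98 records. GTF2H2C_2 was left out because its record lies on a scaffold outside the primary chromosomes, which left 97 of 19708 protein-coding genes. MDA-MB-231, an established human triple-negative breast cancer cell line, was grown in medium with fetal bovine serum, with no drug or genetic change given in the labels, and was profiled in 1 library for PRMT6, an arginine methyltransferase, and 1 for PARP1, a poly(ADP-ribose) polymerase. Each antibody has a single library of a single cell line and no control library was analysed here, so no difference has a replicate check and no p-value is given. The PRMT6 list held 9080 peaks and the PARP1 list 11651. The read depth behind them is unknown.

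RNA polymerase II cannot find a promoter by itself. TFIID, made of TBP and the TAF proteins, recognizes the core promoter, TFIIA and TFIIB join it, and TFIIF, TFIIE and TFIIH help the polymerase to bind, open the DNA and begin RNA synthesis. Mediator is a large complex that bridges activators bound at enhancers and the polymerase, and a separable kinase module controls it. Every protein-coding gene relies on this machinery, and its own genes are mostly broadly expressed.

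Promoters were taken to reach 3 kb upstream and downstream from the 5′ end of each gene record. A PRMT6 promoter peak was found at 24 of the 97 genes (24.7%), against 18.3% of all protein-coding genes. A PARP1 promoter peak was found at 27 (27.8%), against 22.5% of all genes. Both lists had one at 16 genes (16.5%, 95% exact binomial interval 9.73% to 25.4%), and the share over all genes, 13.4%, lay inside this interval. A further 8 genes had a PRMT6 promoter peak only (all genes: 4.89%), 11 had a PARP1 promoter peak only (9.09%), and 62 genes (63.9%) had neither, against 72.6% of all genes. Over all 97 genes the share with both lay near the background, and single-copy genes are set apart next. Intervals cover counting error only and treat genes as independent.

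Multicopy genes made up 19 of the 62 genes with neither. The rule includes 13 TAF11L genes clustered on chromosome 5, whose promoters held 8 distinct sequences among 13, and copies of GTF2H2, GTF2I, GTF2IRD2 and POLR2J. How well reads were assigned among such copies was not tested. Of these 21 genes, 2 had a promoter peak, both from PRMT6 only. Among the other 76 genes, PRMT6 promoter peaks stood at 22 (28.9%, against 18.3% of all genes) and PARP1 promoter peaks at 27 (35.5%, against 22.5%). Both lists had them at 16 (21.1%, 12.5% to 31.9%, against 13.4%), and 43 (56.6%, against 72.6%) had neither. For these genes each share with a peak was further above that of all genes than for the 97, and the difference was not tested. Multicopy genes were removed from the members only. The 19708 genes behind the other shares kept theirs, so the sets compared are not alike.

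To show the DNA under shared peaks, the 250 bases upstream of the RefSeq start (GRCh38.p14) are printed for 1 gene of each complex: the gene with the best mean rank in the lists among those with a RefSeq entry that starts at the 5′ end of the gene record and with these bases mostly under peaks of both lists. Inner starts, such as those of TAF12 and GTF2A1, were not used. POLR2A is added because its peaks left these bases free. Capitals mark the motifs searched on both strands, which were the CCAAT box, the TATA element TATAAA, the core CCGGAAG that ETS factors bind, the GC box GGGCGG that the SP family binds, and longer motifs of NRF1 and YY1, which are named only. A match is a description of the letters only, and overlapping matches merge into 1 run of capitals.
POLR2E (chr19:1095376-1095625, minus strand): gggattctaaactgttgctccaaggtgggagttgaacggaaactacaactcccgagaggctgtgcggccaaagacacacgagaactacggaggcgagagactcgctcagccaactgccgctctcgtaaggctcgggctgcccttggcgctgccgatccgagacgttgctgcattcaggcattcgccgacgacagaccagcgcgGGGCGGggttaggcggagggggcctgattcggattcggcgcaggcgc
MED26 (chr19:16628205-16628454, minus strand): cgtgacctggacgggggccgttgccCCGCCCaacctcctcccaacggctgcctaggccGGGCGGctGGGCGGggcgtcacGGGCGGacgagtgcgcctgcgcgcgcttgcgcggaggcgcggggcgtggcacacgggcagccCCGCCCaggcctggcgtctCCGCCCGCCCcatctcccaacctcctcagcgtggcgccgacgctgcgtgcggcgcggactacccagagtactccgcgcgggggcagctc
TAF13 (chr1:109076004-109076253, minus strand): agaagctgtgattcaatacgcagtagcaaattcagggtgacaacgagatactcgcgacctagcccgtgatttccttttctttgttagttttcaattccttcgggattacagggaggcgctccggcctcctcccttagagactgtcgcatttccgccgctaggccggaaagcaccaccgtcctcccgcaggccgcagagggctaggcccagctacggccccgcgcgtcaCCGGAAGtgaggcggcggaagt
GTF2H4 (chr6:30907957-30908206, plus strand): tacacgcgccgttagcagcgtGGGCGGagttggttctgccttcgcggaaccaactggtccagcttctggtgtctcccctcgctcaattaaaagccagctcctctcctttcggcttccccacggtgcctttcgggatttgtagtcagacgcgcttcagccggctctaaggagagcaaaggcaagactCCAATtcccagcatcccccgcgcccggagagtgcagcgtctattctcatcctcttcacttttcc
POLR2A (chr17:7484116-7484365, plus strand): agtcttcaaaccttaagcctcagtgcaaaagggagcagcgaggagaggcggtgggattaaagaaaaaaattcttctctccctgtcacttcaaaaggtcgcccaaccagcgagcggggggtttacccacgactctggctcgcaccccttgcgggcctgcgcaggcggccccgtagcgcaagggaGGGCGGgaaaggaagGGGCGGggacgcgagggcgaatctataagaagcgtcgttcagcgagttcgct
All 250 bases lay under PRMT6 peaks at POLR2E, MED26, TAF13 and GTF2H4. PARP1 peaks covered 228 of them at POLR2E and 250 at MED26, TAF13 and GTF2H4. At POLR2A both lists covered 0 of these bases. MED26 held 7 matches to GGGCGG, counting those that overlap, POLR2A 2, and POLR2E and GTF2H4 1 each. TAF13 held the single match to CCGGAAG, and GTF2H4 the single match to CCAAT.

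**Figure D1:**
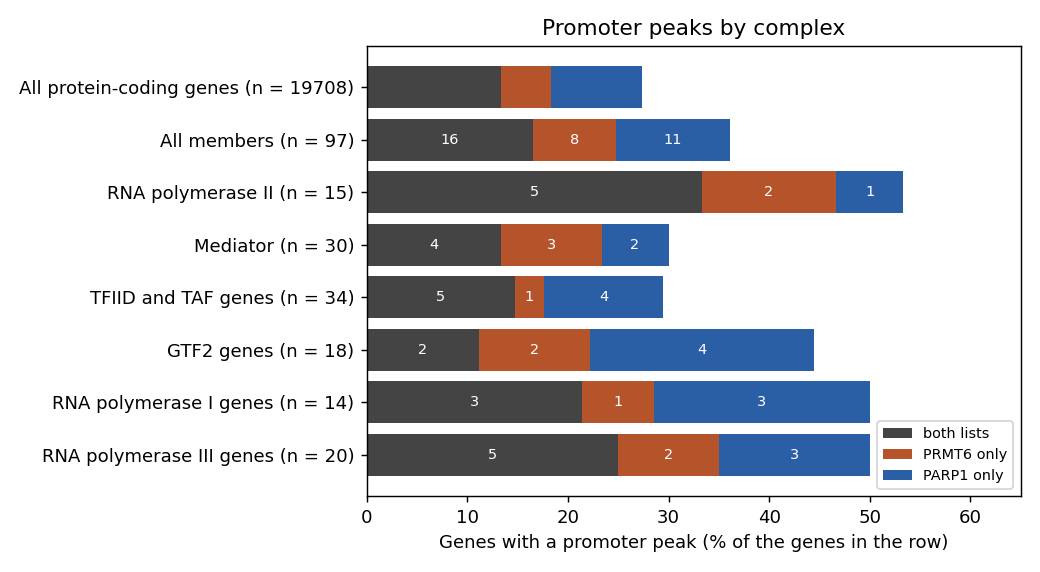
Bars show the percentage of genes with a promoter peak in both lists, in the PRMT6 list only or in the PARP1 list only, for all protein-coding genes, all members, each complex, and the RNA polymerase I and III genes; white numbers count genes. RNA polymerase II genes had the longest dark segment (5 of 15), and Mediator genes, at 4 of 30, stood at the level of all genes.

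RNA polymerase II is built from subunits of its own and from small subunits that polymerases I and III also use. Both lists had promoter peaks at 5 of its 15 genes (33.3%, 11.8% to 61.6%): POLR2A, POLR2E, POLR2H, POLR2I and POLR2L. The share over all genes, 13.4%, lay inside this interval. POLR2G and POLR2M had a PRMT6 peak only and POLR2K a PARP1 peak only, while POLR2B, POLR2C, POLR2D, POLR2F and the near-identical POLR2J, POLR2J2 and POLR2J3 had none. Among the 5 genes of shared subunits, 3 had peaks in both lists (POLR2E, POLR2H and POLR2L), 1 in the PARP1 list only (POLR2K) and 1 in neither (POLR2F). Among the 7 genes of subunits found only in polymerase II, 2 had both (POLR2A and POLR2I). With so few genes the intervals of these shares overlap widely (14.7% to 94.7% and 3.67% to 71.0%). Within 1 kb of the 5′ end, 3 of the 15 genes kept both peaks (20.0%, against 12.0% of all genes), since POLR2H and POLR2L dropped out.

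POLR2E, a shared subunit at the downstream DNA, carried the strongest pair in this complex. Its PRMT6 peak (chromosome 19, 1095205 to 1095712) had rank 928 and score 10.7, while for PARP1 the peak (1095293 to 1095603) had rank 1235 and score 12.1. The score was taken to be the −log10 p or q value of the peak caller and is used here only to rank peaks within a list. Both peaks spanned the 5′ end, and their centres lay 11 bp apart. These are the bases printed above, where the upstream DNA has a CpG-rich promoter with an observed over expected CpG ratio of 1.14.

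At POLR2I, a small subunit involved in start site choice and proofreading, peaks of PRMT6 (chromosome 19, 36115048 to 36115505, rank 976) and PARP1 (36115002 to 36115539, rank 1316) ended 173 and 127 bp upstream of the 5′ end. The 5′ end of TBCB, a tubulin folding cofactor gene on the opposite strand, lies 92 bp from that of POLR2I, and the centres of both peaks were nearer to it. POLR2L showed a wider separation. Its PRMT6 peak (chromosome 11, 843876 to 844414, rank 1200) and PARP1 peak (843922 to 844345, rank 2767) ended 1347 and 1393 bp upstream, and their centres were closer to the 5′ end of the divergent gene TSPAN4. The peaks of POLR2H (chromosome 3, 184363101 to 184363415, rank 5465 for PRMT6, and 184363098 to 184363298, rank 8395 for PARP1) began 1391 and 1388 bp downstream of the record's 5′ end. RefSeq lists a second start of POLR2H at 184363361, which the PRMT6 peak spanned and the PARP1 peak missed by 63 bp.

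POLR2A, the largest subunit, whose tail is phosphorylated during transcription, had its peaks inside the gene. That of PRMT6 (chromosome 17, 7484488 to 7485061, rank 2907) began 122 bp and that of PARP1 (7484576 to 7485015, rank 4651) 210 bp downstream of the 5′ end. ZBTB4 starts 117 bp away on the opposite strand. Of the genes with 1 list only, POLR2G, which forms the stalk with POLR2D, had a PRMT6 peak over its 5′ end at rank 2287. POLR2M, an associated factor, had one at rank 8745, close to the end of the list, with 0.0551% of the PRMT6 peaks scoring lower. The PARP1 peak of POLR2K ranked 10384 of 11651 and lay over the 5′ end of the neighbouring gene FBXO43.

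**Figure D2:**
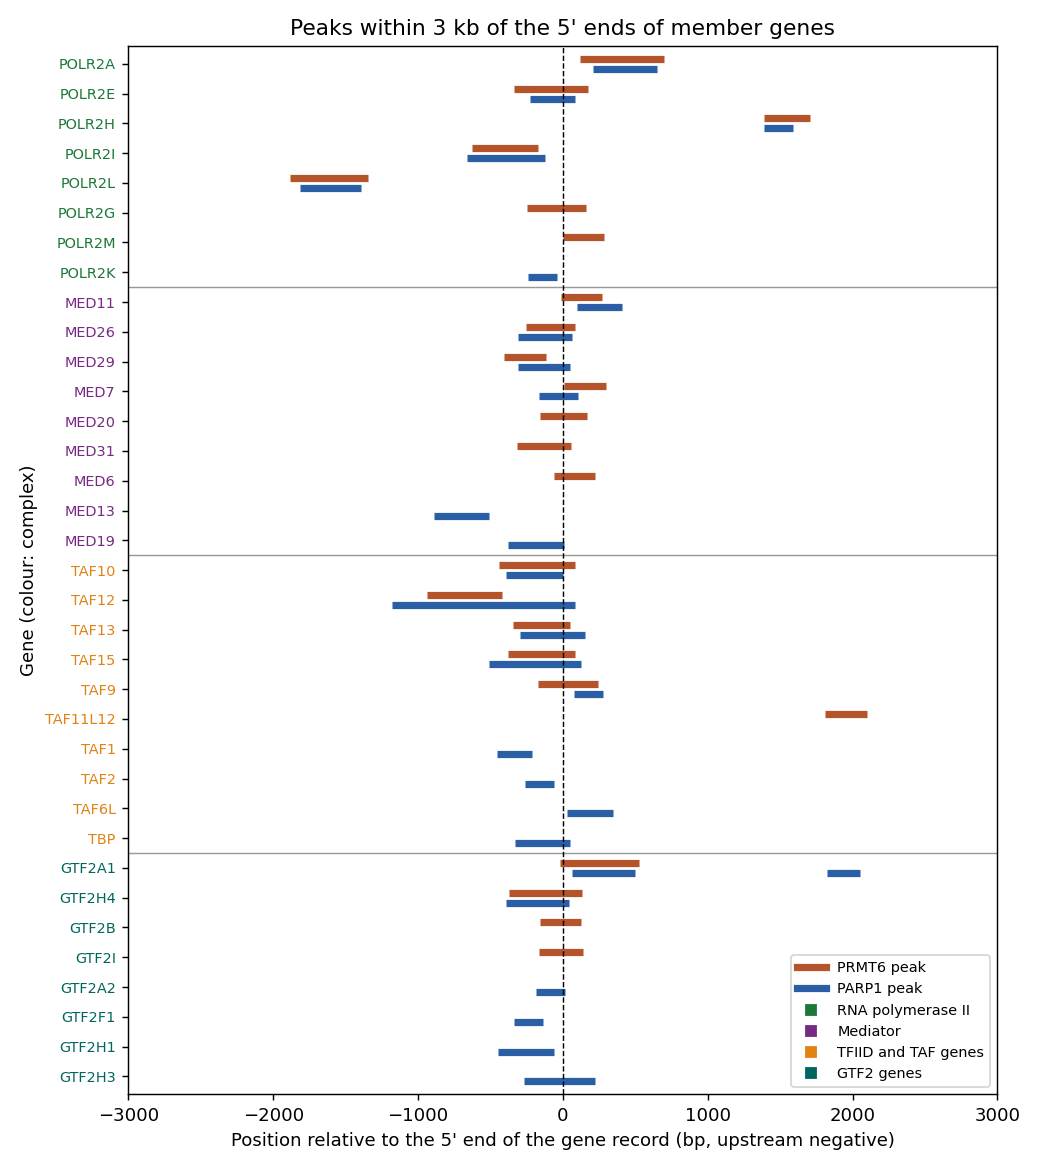
Each bar is a peak within 3 kb of the 5′ end of 1 of the 35 genes with a promoter peak, drawn from start to end along the gene's own direction in bp (upstream negative), with PRMT6 in brown and PARP1 in blue; gene names are coloured by complex. Most bars touch or flank the dashed 5′ end. Those of POLR2H, POLR2L and TAF11L12 and the second PARP1 bar of GTF2A1 lie more than 1 kb away.

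In Mediator both lists had promoter peaks at 4 of 30 genes (13.3%, 3.76% to 30.7%), close to the 13.4% of all genes. They were MED7, MED11, MED26 and MED29, of which MED7 and MED11 dropped out when only the top-scoring 50% of each list was used (2 of 30, 6.67%, against 9.0% of all genes). PRMT6 peaks alone were found at MED6, MED20 and MED31, and PARP1 peaks alone at MED13 and MED19. The other 21 genes had none: MED1, MED4, MED8, MED9, MED10, MED12, MED12L, MED13L, MED14, MED15, MED16, MED17, MED18, MED21, MED22, MED23, MED24, MED25, MED27, MED28 and MED30. By module, 2 of 9 middle genes and 2 of 16 head and tail genes had both. The scaffold gene MED14 had neither. Its nearest peaks lay 348456 bp (PRMT6) and 190921 bp (PARP1) away. MED1, the subunit that nuclear receptors contact, was likewise empty, with its nearest peaks 236979 and 34465 bp away.

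MED26, through which Mediator recruits elongation factors, had the best pair by mean rank. Its peaks, at 16628118 to 16628456 on chromosome 19 for PRMT6 (rank 1697) and at 16628142 to 16628514 for PARP1 (rank 1337), both spanned the 5′ end. At MED29 the peaks (chromosome 19, 39390971 to 39391258, rank 3341 for PRMT6, and 39391070 to 39391427, rank 2403 for PARP1) both covered the 5′ end of PAF1, a subunit of the PAF1 elongation complex, which starts 272 bp away on the opposite strand. The PARP1 peak also covered that of MED29, from which the PRMT6 peak lay 120 bp. MED11, a subunit of the head, had a PRMT6 peak over its 5′ end (chromosome 17, 4731412 to 4731699, rank 3163) and a PARP1 peak that began 95 bp downstream (4731523 to 4731834, rank 6912). MED7 had the weakest pair of all 16 genes, with ranks of 8041 and 7383.

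The kinase module has genes inside and outside the symbol rule. Of its 4 MED genes, MED12, MED12L, MED13 and MED13L, 0 had peaks in both lists (0.0% to 60.2%, against 13.4% of all genes) and only MED13 had any, a PARP1 peak at rank 8153 that ended 511 bp upstream. The kinases CDK8 and CDK19 and their cyclin CCNC complete the module but fall outside the rule. All 3 had promoter peaks in both lists (29.2% to 100%), an interval that overlaps that of the MED genes, with PRMT6 ranks of 3713, 2047 and 4689 and PARP1 ranks of 9957, 6014 and 3763. CDK19 and CCNC had peaks of both lists over the 5′ end. At CDK8 they lay 11 and 42 bp from it.

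The TAF genes and TBP came to 34, and both lists had promoter peaks at 5 of them (14.7%, 4.95% to 31.1%): TAF9, TAF10, TAF12, TAF13 and TAF15. The genes of TFIID proper, TBP and TAF1 to TAF13, gave 4 of 14 (28.6%, 8.39% to 58.1%), and 3 more had a PARP1 peak only (TBP, TAF1 and TAF2). Over all genes, 13.4% had both, a share inside both of these intervals, and 9.09% had a PARP1 peak only. The remaining genes of TFIID proper, TAF3, TAF4, TAF5, TAF6, TAF7, TAF8 and TAF11, had none. The tissue-restricted or alternative paralogs TAF1L, TAF4B, TAF7L and TAF9B had none either. TAF5L had none and TAF6L, the form found in the SAGA complex, had a PARP1 peak at rank 9402 that began 29 bp downstream of the 5′ end. Of the 13 TAF11L copies, TAF11L12 alone was counted, through a PRMT6 peak at rank 8412 that began 1810 bp downstream of its 5′ end.

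TAF15, an RNA-binding protein found with a fraction of TFIID, had the best mean rank of all members. For PRMT6 the peak (chromosome 17, 35809107 to 35809568) had rank 673 and score 12.0, and for PARP1 (35808973 to 35809607) rank 397 and score 17.6. Both spanned the 5′ end, and the nearest other protein-coding 5′ end, that of MMP28, lay 13332 bp from the PARP1 peak. TAF13, a histone-fold subunit that pairs with TAF11, ranked 1543 for PRMT6 (chromosome 1, 109075956 to 109076345) and 4456 for PARP1 (109075851 to 109076299). TAF10, another histone-fold subunit, ranked 2871 and 6116, and TAF9 ranked 3935 and 5722. The TAF9 5′ end coincides with that of AK6, so its peaks cannot be given to either gene.

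The PARP1 peak at TAF12 stood out by its rank of 58 (score 29.8), the highest of any member, and by its extent (chromosome 1, 28648184 to 28649445). It spanned the 5′ end of the TAF12 record. It also covered the whole of RNU11 (28648600 to 28648734), the gene of the U11 small nuclear RNA of the minor spliceosome. The PRMT6 peak there (28648688 to 28649208) ranked 3526 and overlapped RNU11 as well. RefSeq lists its promoter entry for TAF12 at another start, 28643067, and there each list had a second, overlapping peak: PRMT6 at 28643000 to 28643310 (rank 1786) and PARP1 at 28643026 to 28643553 (rank 6645). At this inner start the PRMT6 rank was the better one, whereas next to RNU11 the PARP1 rank was. TAF12, a histone-fold partner of TAF4, therefore counted as shared from either start.

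TBP, which binds the TATA box, had a PARP1 peak over its 5′ end (chromosome 6, 170554036 to 170554420, rank 5138) and its nearest PRMT6 peak 30094 bp away. TAF1, the largest TFIID subunit, had a PARP1 peak (chromosome X, 71365901 to 71366143, rank 4970) that ended 214 bp upstream, and its nearest PRMT6 peak lay 297480 bp away. For both genes the PARP1 peaks were of middle rank in the list of 11651.

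The 18 GTF2 genes gave 2 with peaks in both lists (11.1%, 1.38% to 34.7%, against 13.4% of all genes), GTF2A1 and GTF2H4. GTF2B and GTF2I had a PRMT6 peak only, and GTF2A2, GTF2F1, GTF2H1 and GTF2H3 a PARP1 peak only. GTF2A1L, GTF2E1, GTF2E2, GTF2F2, GTF2H2, GTF2H2C, GTF2H5, GTF2IRD1, GTF2IRD2 and GTF2IRD2B had none. By factor, peaks of at least 1 list were found at both genes that encode general TFIIA (GTF2A1 and GTF2A2). They were also found at 1 of 2 TFIIF genes, at 3 of 6 TFIIH genes and at 0 of 2 TFIIE genes. Of the 18 GTF2 genes, 10 (55.6%) had a peak in neither list, against 72.6% of all genes. The counts by factor rest on few genes and were not tested. GTF2A1, the precursor of the large TFIIA subunits, had a PRMT6 peak over its 5′ end (chromosome 14, 81220866 to 81221412, rank 2907) and a PARP1 peak that began 66 bp downstream (81220896 to 81221324, rank 1794). A second PARP1 peak of rank 4024 was counted in its window. At GTF2H4, a TFIIH subunit that anchors the XPB helicase, the 5′ end lay under peaks of both lists (chromosome 6, 30907838 to 30908341, rank 3373 for PRMT6, and 30907812 to 30908248, rank 2991 for PARP1). GTF2B, the single gene of TFIIB, had a PRMT6 peak over its 5′ end (chromosome 1, 88891440 to 88891727, rank 5718), and its nearest PARP1 peak was 101111 bp away.

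TFIIH is completed by genes without a GTF2 symbol. Of these 5, ERCC2, a helicase, had peaks over its 5′ end in both lists (ranks 2907 and 8871), CCNH had a PARP1 peak only, and CDK7, MNAT1 and ERCC3 had none. The TBP paralogs TBPL1 and TBPL2 had none. Among 12 genes of pausing and elongation, 3 had both: HEXIM1 (ranks 473 and 3269), CCNT2 (1604 and 619) and NELFE (2287 and 1925). NELFCD and SUPT4H1 had PRMT6 peaks only, CCNT1 and TCEA1 PARP1 peaks only, and NELFA, NELFB, SUPT5H, CDK9 and TCEA2 none. Of the 22 pathway genes outside the symbol rule, peaks of both lists stood at 7 promoters (31.8%, 13.9% to 54.9%), and the 13.4% of all genes lay just below this interval. These genes were chosen with earlier results of these data known, so the interval is not a test of a difference. Of the 7, 3 are CDK8, CDK19 and CCNC. The genes of the other polymerases gave 3 of 14 for polymerase I (21.4%, 4.66% to 50.8%) and 5 of 20 for polymerase III (25.0%, 8.66% to 49.1%), with the 13.4% of all genes inside both intervals. The intervals of the 3 polymerase groups overlapped, and a difference between them was not tested. The 5 genes of shared subunits were counted with polymerase II only, so the groups of polymerases I and III lack them.

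**Figure D3:**
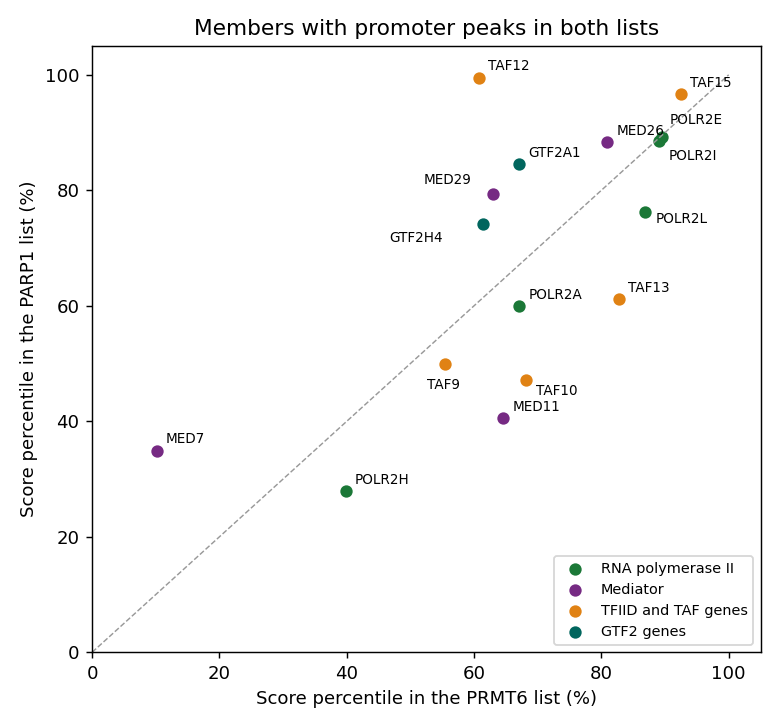
Each point is 1 of the 16 genes with promoter peaks in both lists, placed by the percentage of peaks with a lower score for PRMT6 (x) and for PARP1 (y), with the colour giving the complex and the dashed line equal percentiles. TAF15, POLR2E and POLR2I lie high on both axes, TAF12 lies highest on the PARP1 axis at 99.5, and MED7 and POLR2H lie lowest.

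At all 16 shared genes a PRMT6 and a PARP1 peak overlapped, as they did at 96.3% of the 2637 such genes in the genome. The centres of the nearest peaks lay 6 to 186 bp apart with a median of 53.5 bp. The closest pair was that of POLR2I and the widest that of MED7. The percentile of the score within its list was higher for PARP1 at 7 of the 16 genes and higher for PRMT6 at 9. Genes with both peaks made up 66.7% of members with a PRMT6 peak and 59.3% of those with a PARP1 peak, against 73.2% and 59.5% over all genes.

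The peaks of the machinery were of middle strength for promoter peaks. Their median percentile was 66.2 for PRMT6 and 59.9 for PARP1, against 71.4 and 60.9 for promoter peaks of all genes. The top 10% of the PRMT6 list held 1 of the 24 (TAF15, 4.17%), against 19.6% of all genes with a PRMT6 promoter peak. The top 10% of the PARP1 list held 2 of the 27 (TAF12 and TAF15, 7.41%), against 14.7%. Members with a peak in 1 list only reached a percentile of 75.4 for PRMT6 (MED31) and 82.0 for PARP1 (MED19), so none was in the top 10%. Shared members had higher medians than the others in both lists, 67.1 against 46.2 for PRMT6 and 75.2 against 53.8 for PARP1. The same order held over all genes (77.6 against 48.4, and 73.6 against 41.9).

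Most peaks sat close to the 5′ end, as they did over all genes. PRMT6 peaks spanned it at 16 of 24 genes (66.7%, against 55.9% of all genes with a PRMT6 promoter peak) and lay within 500 bp at 21 (87.5%, against 83.5%). PARP1 peaks spanned it at 12 of 27 (44.4%, against 45.8%) and lay within 500 bp at 24 (88.9%, against 82.6%). The centre of the nearest PARP1 peak was upstream of the 5′ end at 21 of 27 genes (77.8%, against 69.0% of all), with a median of -141 bp. For PRMT6 it was upstream at 14 of 24 (58.3%, against 68.9%), with a median of -30.2 bp. Inside the window, the members whose nearest peaks lay farthest from the 5′ end were POLR2H and POLR2L, named above, and TAF11L12 (1810 bp). The second PARP1 peak of GTF2A1, counted in the window at 1823 bp, lay farther still. Just outside were TAF3 with a PRMT6 peak 3114 bp upstream (chromosome 10, 7815104 to 7815391, rank 6841), MED20 with a PARP1 peak 3297 bp downstream (chromosome 6, 41917558 to 41917842, rank 7374), and MED25 with a PRMT6 peak 4422 bp upstream that lay 27 bp from the 5′ end of FUZ.

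Many of these promoters are shared with a neighbour. A second protein-coding gene started on the opposite strand within 1 kb at 19 of the 97 genes (19.6%), against 13.7% of all protein-coding genes. In RNA polymerase II it was 6 of 15 genes, and 4 of the 5 with both peaks (POLR2A with ZBTB4, POLR2H with CLCN2, POLR2I with TBCB and POLR2L with TSPAN4). Of the 19 genes with such a partner, 6 (31.6%, 12.6% to 56.6%) were shared by the lists, against 28.0% of all genes with a partner. Of the 78 without one, 10 (12.8%, 6.32% to 22.3%) did, against 11.1%. Both shares lay near those of all genes of the same arrangement, and this was not tested. The 78 without a partner include all 21 multicopy genes, of which 0 had both peaks, and these lower the share of the 78. They also lower the share of members with a partner. At 6 of the 35 genes with a promoter peak (GTF2H1, MED29, MED31, POLR2I, POLR2K and POLR2L), a counted peak had its centre nearer to the 5′ end of another protein-coding gene than to any listed start of the member.

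**Figure D4:**
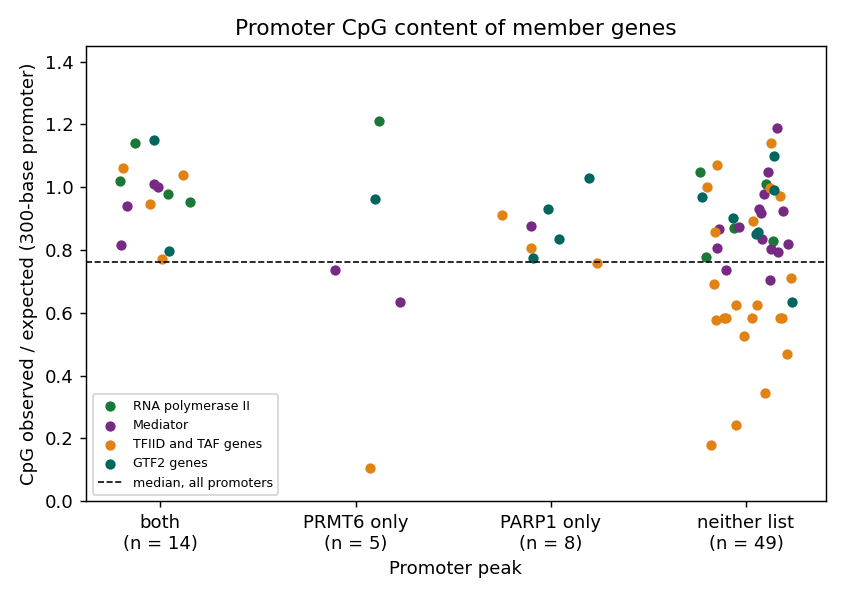
Points are the 76 members with a RefSeq promoter sequence, placed by the class of their promoter peaks (x) and the observed over expected CpG ratio of the 300-base promoter (y), coloured by complex; the dashed line is the median of all promoters, 0.761. All 14 genes with both peaks lie above the line, while those with neither spread from 0.179 to 1.19. The TAF11L copies among those with neither all lie below the line.

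Promoters of the members were rich in CpG. RefSeq promoter sequences (250 bases before the start to 50 after) were matched for 76 of the 97 genes and for 15843 of all genes. The median CpG ratio was 0.862 in members and 0.761 in all promoters, and 0.911 in members without the TAF11L copies, whose own ratios ran from 0.106 to 0.625. The 14 members with peaks in both lists and a sequence had a median of 0.991 and a range of 0.772 to 1.15, and 14 of the 14 exceeded the median of all promoters. Of the 49 with neither peak, 31 did, and the 12 TAF11L copies among them did not. Without these copies, 37 members with neither peak remained, with a median of 0.874 and a range of 0.468 to 1.19. Over all promoters the order was the same: 69.9% of those with both peaks exceeded it (median 0.849) and 42.6% of those with neither (median 0.69). All promoters were split into 4 bins of equal size by CpG ratio. The top bin, from 0.913, held 31 members, of which 11 (35.5%) had both peaks, against 19.8% of all genes in that bin. The next bin held 23 members, of which 3 (13.0%) had both, against 20.1%. In the bottom bin and the one above it 0 of 4 and 0 of 18 members had both, against 2.95% and 14.2% of all genes. The 4 members of the bottom bin were all TAF11L copies, and the other TAF11L copies lay in the bin above it. The shares by bin rest on few genes and were not tested.

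The ETS-type core CCGGAAG was present on either strand in 23 of the 76 member promoters (30.3%), against 14.2% of all promoters. It was found in 6 of 14 members with both peaks, 7 of 13 with 1 list and 10 of 49 with neither, or 10 of 37 (27.0%) without the TAF11L copies. Over all promoters the shares were 19.0%, 22.2% and 11.5%. GGGCGG was present in 48 (63.2%, against 58.3%) and CCAAT in 22 (28.9%, against 36.4%). TATAAA was present in 7 (9.21%, against 9.75%). The YY1 motif was present in 5 member promoters (6.58%, against 1.33%), and the NRF1 motif in 2 (2.63%, against 1.77%). The genes with either of the last motifs had no promoter peak in either list (5 and 2 of 49). Over all promoters the YY1 motif was present in 2.22% of those with both peaks and 0.88% of those with neither, and the NRF1 motif in 3.01% and 1.4%. At such low shares, 0 matches among 14 members with both peaks and 13 with 1 list cannot show an order among members.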

How the data were processed

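Chromatin of MDA-MB-231 cells was profiled with antibodies against PRMT6 and PARP1, 1 library each, grouped by the antibody in the labels. The methods describe CUT&Tag, and the labels also describe ligation of adaptors to immunoprecipitated DNA. The authors called peaks in each library. The deposited lists give a position and a score per peak, the −log10 p or q value of the peak caller, and the sources used here do not say which. Submitters' processing notes name CASAVA 1.4, Bowtie 0.12.8, MACS and MACS2, without a threshold or control, and the build hg19. The positions are those of GRCh38: 30.1% of PRMT6 and 29.5% of PARP1 peaks lay within 1 kb of a GRCh38 RefSeq 5′ end, against 4.04% and 3.94% for GRCh37 records. Positions are printed counted from 1, with the listed starts read as counted from 0.

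Gene records came from RefSeq GRCh38.p14, with the strand from RefSeq promoters (76 members) or from the GENCODE gene of the same name (21 members). Records without a strand or outside the primary chromosomes were left out (348 of 20056). Each gene has 1 start, the 5′ end of its record, and any base of a peak within 3 kb counted. Ranks are by score within a list, and peaks with tied scores all take the best rank of the tie. A weak peak can therefore have a better rank than its percentile, the percentage of peaks with a lower score. In the PRMT6 list, GTF2B at rank 5718 had a percentile of 27.2 and TAF3 at rank 6841 had 13.7. MED6 and POLR2M, both at rank 8745, had 0.0551. Overlap meant at least 1 shared bp. Intervals are 95% exact binomial intervals. Python 3.11.15, numpy 2.4.6, pandas 2.3.3 and scipy 1.17.1 were used. Promoter assignment was tested on simulated peaks and matched in 300 of 300 genes. Named with positions are, per complex, the shared genes with the 3 best mean ranks, and the 5 best over all. POLR2A, TBP, TAF1, MED1, MED14, GTF2B and the genes whose nearest peaks lay closest to the window's edge on each side are also named. TAF12's inner start, RNU11, MED7, POLR2H and other single genes were picked after their values were seen. Members, complexes, pathway lists and motifs were chosen with earlier results of these data known. Alternatives covered the window, the score, the list length, peak width, multicopy genes, start sites and the overlap rule.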

Additional observations from a re-analysis of the deposited data

How the results depend on the processing

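Of 45 alternatives computed, 43 left a count within 1.5 times its value and 2 moved it. Some of the 43 could not move a count. Cutting the PARP1 list to the length of the PRMT6 list leaves PRMT6 peaks unchanged. The multicopy members had 0 PARP1 promoter peaks, so removing them could not change the PARP1 or shared counts. Counts within 1.5 times include falls, such as members with a PRMT6 peak from 24 to 17 without peaks of the smallest width. With a window of 1 kb, RNA polymerase II genes with promoter peaks in both lists fell from 5 to 3, without POLR2H and POLR2L. With only the top-scoring 50% of each list, Mediator genes with both fell from 4 to 2. The count of members with both ranged from 12 to 16 over the alternatives, and the share over all genes from 9.0% to 14.1%. It was 12 (12.4%) without peaks of the smallest width, against 10.3% of all genes. All RefSeq start sites kept the same 16 genes. A reciprocal overlap of 50% left 13 of the 16 overlapping. The cause of the moved counts was not tested beyond what each setting's construction shows. The lists carry no read counts, so a missing peak is a peak not called at an unknown depth, not absence of the protein. No paired analysis was possible because there was 1 library per antibody.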

Other observations

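Some members had peaks that overlapped the gene record beyond the promoter window. There were 10 PRMT6 peaks in 9 of the 97 genes (9.28%, against 13.2% of all protein-coding genes) and 18 PARP1 peaks in 13 (13.4%, against 14.6%), so such genes were no more frequent among members. Records of members were shorter, with a median of 18500 bp against 24700 bp for all genes. The shares were not adjusted for this length. A PARP1 peak of TAF6L lay across the end of its record. Of these peaks, 5 of each list overlapped a peak of the other. The strongest lay in MED24, which had no promoter peak. Its PRMT6 peak (chromosome 17, 40021403 to 40021884) ranked 221, better than any promoter peak of a member in that list, and its PARP1 peak (40021438 to 40021825) ranked 939. Their centres lay 32764 and 32776 bp downstream of the 5′ end in a record of 35305 bp, and the nearest other protein-coding 5′ end, that of CSF3, was 5963 bp from the PRMT6 peak. MED27 had overlapping peaks far inside the gene (chromosome 9, 132042272 to 132042589, rank 4689 for PRMT6, and 132042362 to 132042692, rank 1283 for PARP1). Overlapping pairs were also found in GTF2F2 and MED12L, and at the inner start of TAF12 described above. POLR2B, the second largest polymerase subunit, had no promoter peak but a PARP1 peak of rank 1853 at 44418 bp (chromosome 4, 57023161 to 57023468). These genes were named after their values were seen, and no explanation was tested.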
